A study of Rattus norvegicus with 9 samples.

Results

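The 46 genes described here encode the secreted Wnt ligands, their Frizzled receptors and Lrp co-receptors, the R-spondins, the secreted antagonists and 3 intracellular genes of the same pathway, measured in rat femurs after growth plate injury. They were taken by name: every symbol made of Wnt, Fzd, Dkk or Sfrp and a number, together with Frzb, Lrp5, Lrp6, Axin2, Lef1, Tcf7, Rspo1, Rspo2 and Rspo3. The names matched 46 of 31125 gene rows, 1 row for each symbol. The rule uses names and no measured values, although it was written with earlier results of these data known. They comprised 19 ligands, 12 receptors and co-receptors, 3 R-spondins, 9 antagonists and 3 intracellular genes. Intact femurs of male rats were collected 7 days after surgery in 3 groups of 3 libraries. Sham animals had sham surgery. GPI animals had an injury of the distal femoral growth plate, the cartilage from which the bone lengthens. GMTT animals had the same injury and a hydrogel that the labels call GMTT, which the series title describes as tea polyphenols in a gel of GelMA, a light-curable gelatin, and TPGS, a water-soluble form of vitamin E. Strain and age are not given by the sources used, and the groups analysed here include neither the hydrogel without injury nor an unloaded gel. The labels give 3 rats a group and are silent on pooling of tissue, so each p-value reflects only how much these libraries vary, which may be partly technical. In RNA from a whole bone, fewer cells of a type and less RNA in each cell cannot be told apart.

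Wnt proteins are lipid-modified signals that bind a Frizzled receptor at the surface of a nearby cell. With Lrp5 or Lrp6 as co-receptor, the signal stops the destruction of beta-catenin, which enters the nucleus and acts with Lef1, Tcf7 and related factors, and Axin2 is a usual target that feeds back as an inhibitor; other ligands, Wnt5a among them, act mostly through calcium and cell polarity branches. R-spondins raise the number of Frizzled receptors at the surface, Sfrp proteins and Frzb bind the ligands, and Dkk1 and sclerostin block the co-receptors, a brake on bone formation that is well known in osteocytes.

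Values are given as normalised CPM, which are counts per scaled library size after TMM scaling, a factor that evens out the middle range of genes. A gene was called higher or lower when its adjusted p was below 0.05 (edgeR's quasi-likelihood test, Benjamini-Hochberg over 15936 tested genes), and log2 fold changes come from the same model. Libraries held 15927429 to 19715997 counts. The mean TMM factor was 1.28 for Sham, 0.602 for GPI and 1.29 for GMTT. Transcripts from other sources moved with the groups. The 10 skeletal muscle markers found made up 0.208% to 0.217% of counts in Sham, 11% to 11.4% in GPI and 2.09% to 2.22% in GMTT. The 13 mitochondrially encoded genes made up 3.65% to 4.02%, 25.4% to 26.9% and 5.73% to 6.41% in the same order. Erythroid markers (10 of 10 detected) took 7.68% to 8.63% in Sham, 0.103% to 0.112% in GPI and 4.12% to 4.52% in GMTT, and neutrophil markers (8 of 8) 0.896% to 0.967%, 0.000474% to 0.000573% and 1.06% to 1.11%. All 8 bone-forming cell markers were detected, at 0.68% to 0.734% in Sham, 0.329% to 0.348% in GPI and 0.914% to 1.0% in GMTT. This sum hides single genes, since 2 of the 8 were called higher and 5 lower in GMTT against Sham, with a median of -0.33. Of all tested genes, 29.5% and 28.3% were. The 7 chondrocyte markers of the growth plate made up no more than 0.00603% of counts in any library. The part of these shifts in the results was not tested. Scaling by library size alone lowered the median log2 fold change of all genes in GPI against Sham from -0.19 to -1.28 and raised that of GMTT against GPI from 0.12 to 1.22. Signs and calls are set against 0, so in those comparisons they depend on the scaling and should be read beside these medians.

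The first comparison, GPI against Sham, asks what the injury changed. Receptors were mostly higher in GPI, with Fzd4, Fzd7, Fzd9 and Fzd10 each at log2 fold changes of 3.76 or more, and Rspo3 and Wnt9a rose by similar amounts. Dkk1, Lef1, Fzd5, Rspo1 and Wnt2 were the genes that fell furthest. Of the 46 genes, 34 had enough counts to test, 9 had counts below the filter and 3 had none. Among the 34, 21 were called higher, 11 lower and 2 not called, where 40.1% and 48.1% of all tested genes were called higher and lower. With a minimum of 2-fold, 17 were higher and 8 lower, against 26.7% and 31.6% of all tested genes. The median log2 fold change of the 34 was 0.99. With library sizes only, 16 were called higher and 15 lower. A gene that entered through the group in which it was high had to differ, so these counts describe the 34 genes and support nothing further.

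The second comparison, GMTT against GPI, asks what the hydrogel changed in injured femurs. Dkk1, Wnt2, Lef1, Fzd5 and Rspo1 were higher in GMTT, and Sfrp5, Rspo3, Fzd10, Fzd9 and Fzd4 were lower. Of the 34 tested, 13 were called higher, 17 lower and 4 not called, against 45.7% and 40.2% of all tested genes. At the 2-fold minimum 8 were higher and 15 lower, where the shares of all tested genes were 28.6% and 24.4%. The median was -0.33, and with library sizes only 19 were called higher and 10 lower. This comparison and the first share the GPI libraries, so values of both are given side by side for each gene and not as independent evidence.

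The third comparison, GMTT against Sham, asks where treated femurs differed from sham-operated ones. Here 20 were called higher, 4 lower and 10 not called, against 29.5% and 28.3% of all tested genes. The 4 lower were Dkk1, Sfrp4, Lef1 and Fzd5. At the 2-fold minimum 10 were higher and 0 lower, where 9.19% and 2.44% of all tested genes passed. Among the 34 tested genes the count was 0 with edgeR, whatever the p threshold, since the lowest value was -0.57 (Lef1), and 0 with DESeq2. Without the low-count filter edgeR called 1 further gene, Wnt1, lower by that rule. The 10 were Wnt2, Wnt9a, Wnt16, Fzd2, Fzd4, Fzd9, Fzd10, Rspo2, Rspo3 and Dkk2. The median was 0.57, and library sizes only gave the same counts, 20 higher and 4 lower. The median of all genes was 0 here, and 0.01 with library sizes only.

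**Figure D1:**
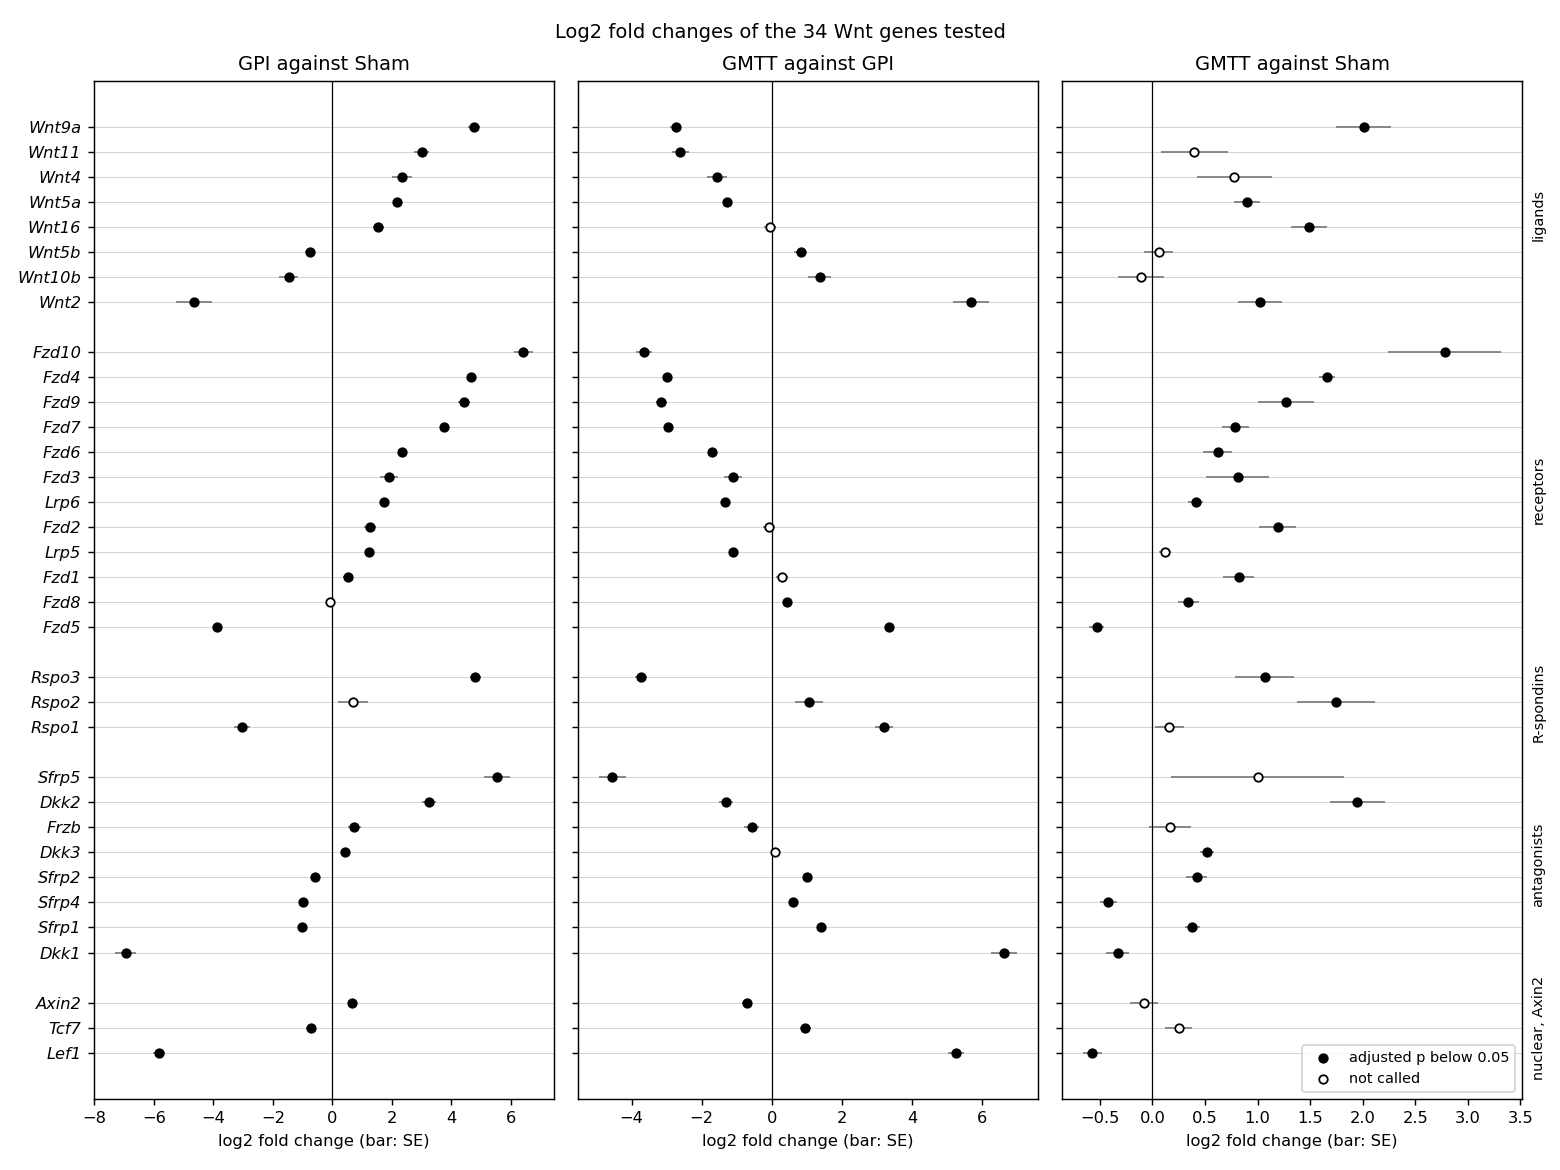
Log2 fold changes (horizontal axes, bars are SE) of the 34 tested genes in each comparison, grouped by role and ordered by GPI against Sham. Filled points have an adjusted p below 0.05 and open points do not. Fitted values of Dkk1 and Wnt2 rest on 2 counts in GPI.

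Fzd4 had the highest FPKM of the 46 genes in GPI. Fzd4 (ENSRNOG00000063590, mRatBN7.2 chromosome 1, 143280065 to 143285724), a Frizzled known for its role with norrin in vessel growth, stood at 7.44, 6.5 and 7.31 normalised CPM in the Sham libraries, 183, 171 and 177 in those of GPI, and 22.2, 22.9 and 21.8 in those of GMTT. All GPI libraries lay far above the others, and GMTT lay above Sham with no overlap. Its log2 fold change was 4.65 (SE 0.07) in GPI against Sham, -2.99 (SE 0.06) in GMTT against GPI and 1.66 (SE 0.08) in GMTT against Sham, with adjusted p of 3.26e-33, 1.02e-29 and 3.8e-18 by edgeR's quasi-likelihood test. Fzd10, another Frizzled, had few reads outside GPI and held 0, 2 and 3 counts in the Sham libraries, 70, 89 and 83 in those of GPI, and 14, 12 and 13 in those of GMTT. In normalised CPM, this was 7.13 ± 1.08 in GPI (SD, n = 3) and 0.565 ± 0.0354 in GMTT, and its log2 fold changes were 6.42 (SE 0.33), -3.64 (SE 0.23) and 2.78 (SE 0.54) in the order above. The small counts in Sham leave the size of these changes uncertain. Without Sham replicate 3 the values against Sham were 7.07 in GPI and 3.44 in GMTT, and by limma on unfiltered log2(FPKM + 1) values the GMTT against Sham value was 0.20 and not called.

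Fzd7 and Fzd9 followed the pattern of Fzd4. Fzd7, a widely expressed receptor of mesenchymal cells, averaged 3.37 ± 0.273 normalised CPM in Sham, 45.7 ± 1.89 in GPI and 5.82 ± 0.59 in GMTT (SD, n = 3). The corresponding means of Fzd9, which is known in osteoblasts, were 0.754 ± 0.46, 15.9 ± 0.518 and 1.78 ± 0.0518. Fzd6 and Fzd3, receptors of the polarity branch, rose in GPI against Sham by 2.33 and 1.91 on the log2 scale and fell in GMTT against GPI, with values of -1.71 and -1.10 under TMM scaling, although Fzd3 was at 0.00 and not called with library sizes only. In GMTT against Sham Fzd6 was higher by 0.62 and Fzd3 by 0.81; the Fzd3 call was lost with DESeq2, on log2(FPKM + 1) values, and without Sham replicate 1, Sham replicate 3 or GMTT replicate 1.

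Fzd5 went the other way. This receptor of canonical ligands was measured at 40.8, 40.3 and 40.1 normalised CPM in the Sham libraries, 2.2, 3.36 and 2.6 in those of GPI, and 26.8, 29.2 and 27.8 in those of GMTT. Every GPI library was below every GMTT library, and these were below every Sham library. The log2 fold changes were -3.88 (SE 0.11), 3.35 (SE 0.12) and -0.53 (SE 0.07). Fzd2 was higher in GPI than in Sham by 1.28 under TMM scaling, but only 0.19 and not called with library sizes only, and it was higher in GMTT than in Sham by 1.19; in GMTT against GPI its value was -0.09, not called, and 1.02 with library sizes only. Fzd1 was higher in GPI than in Sham by 0.53 under TMM scaling and lower, at -0.56, with library sizes only. Its value in GMTT against Sham was 0.82 (called), and in GMTT against GPI 0.29 (not called, but 1.39 and called with library sizes only). Fzd8 was not called in GPI against Sham at -0.09, though it was lower, at -1.18, with library sizes only, and it was higher in GMTT against GPI (0.43) and against Sham (0.34).

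The co-receptors Lrp5 and Lrp6, which pair with Frizzled in the beta-catenin branch and of which Lrp5 is known for setting bone mass, were both higher in GPI. Lrp5 stood at 32.7, 31.6 and 35.8 normalised CPM in the Sham libraries, 80.1, 79.7 and 76.6 in those of GPI, and 38.3, 36.4 and 34 in those of GMTT. The GPI libraries were apart from the rest, while Sham and GMTT overlapped. Lrp5 gave 1.24 (SE 0.06) in GPI against Sham, -1.12 (SE 0.06) in GMTT against GPI and 0.12 (SE 0.06), not called, in GMTT against Sham. With library sizes only, the GMTT against GPI value was -0.02 and not called. Lrp5 was called in GMTT against Sham under median-of-ratios scaling and without Sham replicate 3 or GMTT replicate 3. Lrp6 stood at 21.7, 21.5 and 19.8 normalised CPM in the Sham libraries, 69.8, 68.3 and 72.7 in those of GPI, and 28.4, 27.6 and 27.5 in those of GMTT. Its 3 groups did not overlap, with GPI highest and Sham lowest, and its log2 fold changes were 1.74 (SE 0.06), -1.34 (SE 0.06) and 0.41 (SE 0.07). By role, 10 of the 12 receptors and co-receptors were called higher in GPI against Sham under TMM scaling and 1 lower, with the exceptions for Fzd1, Fzd2 and Fzd8 under library sizes only given above, against 40.1% and 48.1% of all tested genes. In GMTT against GPI 2 were higher and 8 lower, against 45.7% and 40.2%. In GMTT against Sham 10 were higher and 1 lower, against 29.5% and 28.3%.

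Skeletal muscle, adipocyte and endothelial markers were higher in the same libraries as these receptors. All 10 tested muscle markers were called higher in GPI against Sham, as were 5 of 5 adipocyte and 5 of 5 endothelial markers. The same held for 8 of 8 fibroblast and tendon markers. Of all tested genes, 40.1% were called higher in that comparison. Adipocyte markers took 0.0137% to 0.0142% of counts in Sham, 0.137% to 0.142% in GPI and 0.0336% to 0.0354% in GMTT. Endothelial markers took 0.0204% to 0.0209%, 0.0419% to 0.0431% and 0.0246% to 0.0264% in the same order. Their part in the receptor values was not tested.

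**Figure D2:**
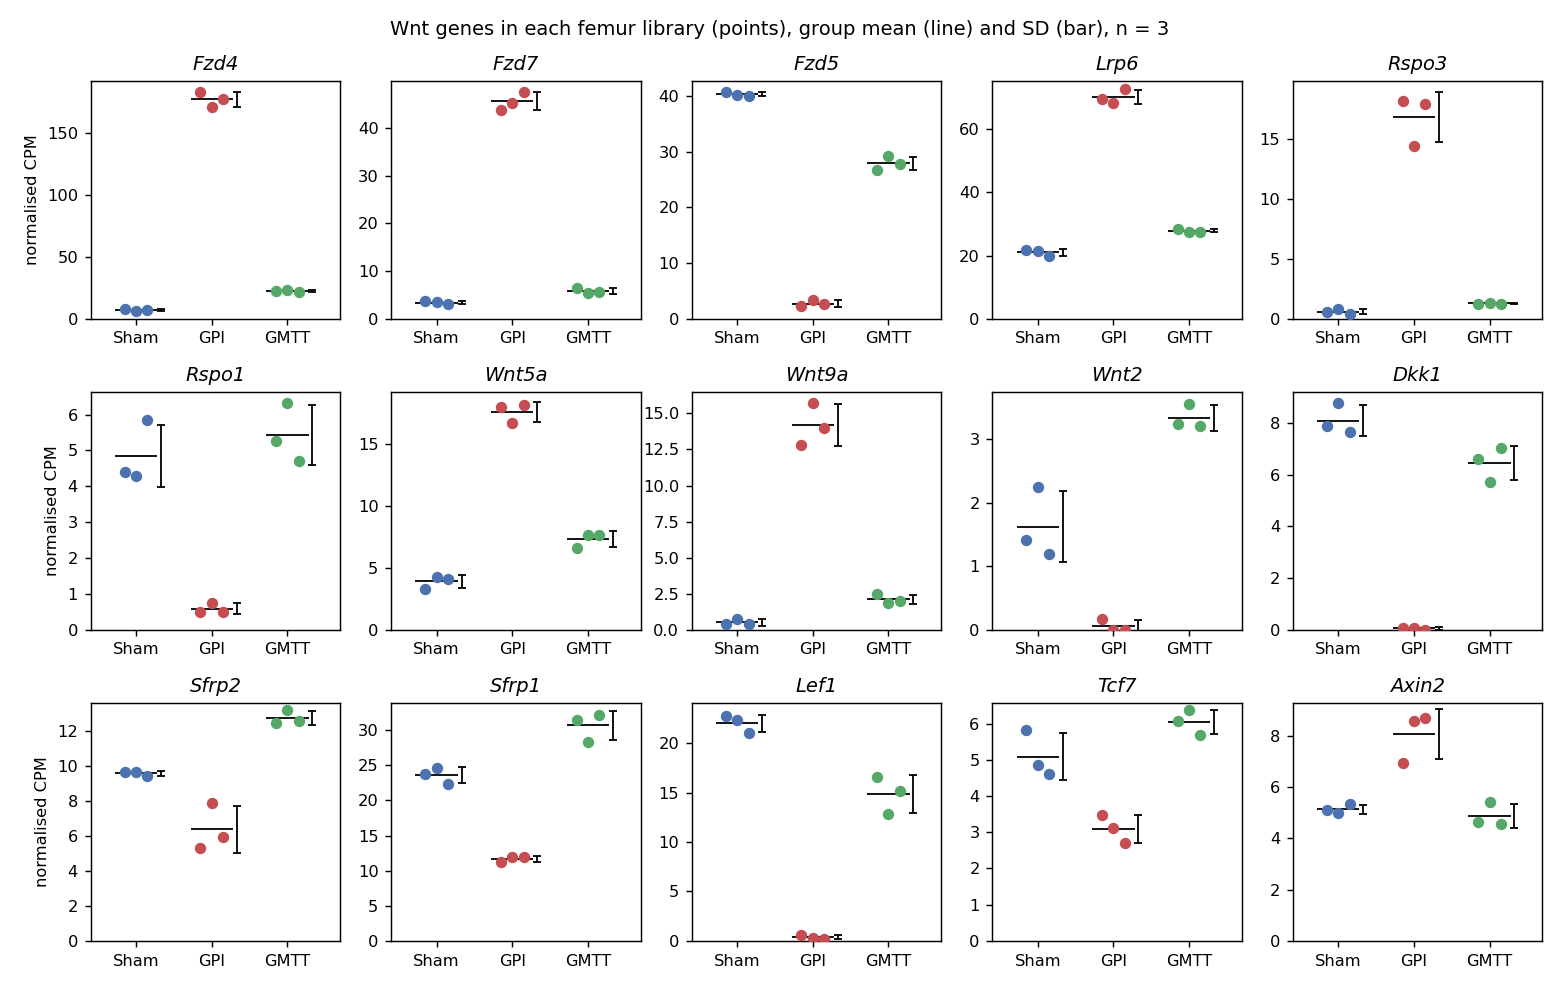
Normalised CPM (vertical axis from 0, a scale of its own in each panel) of 15 Wnt genes in each library (points), with the group mean (line) and SD (bar, n = 3). Fzd4, Fzd7, Lrp6, Rspo3, Wnt5a and Wnt9a are highest in GPI, and Fzd5, Rspo1, Wnt2, Dkk1 and Lef1 are lowest there.

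The 3 R-spondins split. Rspo3 (ENSRNOG00000011568, mRatBN7.2 chromosome 1, 28283914 to 28367061), which is expressed in vessels and mesenchyme, stood at 0.538, 0.823 and 0.414 normalised CPM in the Sham libraries, 18.1, 14.4 and 17.9 in those of GPI, and 1.24, 1.32 and 1.23 in those of GMTT. All GPI libraries stood far above the others, and GMTT lay above Sham without overlap. Rspo3 changed by 4.80 (SE 0.18), -3.73 (SE 0.16) and 1.07 (SE 0.28) in the 3 comparisons, with adjusted p of 9.79e-22, 2.06e-20 and 0.00144 by edgeR's quasi-likelihood test. Rspo1, known as a gut growth factor, stood at 4.4, 4.29 and 5.84 normalised CPM in the Sham libraries, 0.508, 0.756 and 0.482 in those of GPI, and 5.25, 6.33 and 4.7 in those of GMTT. Here the GPI libraries were lowest, and Sham and GMTT overlapped. It changed by -3.03 (SE 0.27) and 3.19 (SE 0.26), and its 0.16 (SE 0.14) in GMTT against Sham was not called. Rspo2, known in limb and cartilage growth, had few reads, with 9, 5 and 7 counts in the Sham libraries, 11, 3 and 4 in those of GPI, and 22, 23 and 31 in those of GMTT. It was called higher in GMTT than in Sham at 1.75 (SE 0.37). The value in GPI against Sham was 0.70 under TMM scaling and -0.37 with library sizes only, not called in either, and it was -0.03 without GPI replicate 1. The call in GMTT against GPI, 1.05 (SE 0.40), was lost with DESeq2 and without GPI replicate 2, GPI replicate 3 or GMTT replicate 3, and the value was 1.79 without GPI replicate 1.

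Of the 8 ligands tested, 5 were called higher and 3 lower in GPI against Sham, where 40.1% and 48.1% of all tested genes were. Wnt5a (ENSRNOG00000015618, mRatBN7.2 chromosome 16, 3697032 to 3718234), the main ligand of the calcium and polarity branches, stood at 3.33, 4.29 and 4.09 normalised CPM in the Sham libraries, 18, 16.7 and 18.2 in those of GPI, and 6.61, 7.69 and 7.68 in those of GMTT. The groups did not overlap, with GPI highest and Sham lowest. The log2 fold changes of Wnt5a were 2.17 (SE 0.12), -1.27 (SE 0.11) and 0.90 (SE 0.12), with adjusted p of 1.49e-17, 1.17e-12 and 1.87e-07 by edgeR's quasi-likelihood test, but with library sizes only its GMTT against GPI value was -0.16 and not called. Wnt9a, a ligand of joint formation, stood at 0.391, 0.78 and 0.368 normalised CPM in the Sham libraries, 12.8, 15.7 and 14 in those of GPI, and 2.48, 1.89 and 1.97 in those of GMTT. It had the same order of groups, also with no overlap, and changed by 4.75 (SE 0.20), -2.74 (SE 0.15) and 2.01 (SE 0.26). Wnt16, a ligand known for its effect on cortical bone, stood at 1.57, 1.91 and 1.29 normalised CPM in the Sham libraries, 4.99, 4.71 and 4.24 in those of GPI, and 4.86, 4.79 and 3.82 in those of GMTT. Here GPI and GMTT overlapped and both lay above Sham. Wnt16 was higher in GPI than in Sham by 1.55 (SE 0.19) and in GMTT than in Sham by 1.49 (SE 0.17); the GMTT against GPI value of -0.05 was not called, and was 1.05 and called with library sizes only.

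Wnt2 and Wnt5b had their lowest values in GPI. Wnt2, a canonical ligand, held 29, 52 and 26 counts in the Sham libraries, 2, 0 and 0 in those of GPI, and 76, 81 and 73 in those of GMTT. Corrected for the scaled library sizes, Sham was 27.9 times GPI (95% counting interval 7.55 to 234) and GMTT was 56.8 times GPI (15.6 to 472), and these intervals cover counting error only. Both GPI counts were in replicate 1. Without that library GPI held no count, and the fitted log2 values, which then depend on the prior count, were -8.01 in GPI against Sham and 9.03 in GMTT against GPI. GMTT lay above Sham by 1.02 (SE 0.21), with no overlap. Wnt5b, a close relative of Wnt5a known in chondrocytes, stood at 4.65, 5.5 and 4.78 normalised CPM in the Sham libraries, 3.22, 3.61 and 1.93 in those of GPI, and 5.46, 5.54 and 4.65 in those of GMTT. The GPI libraries lay below the others, and Sham and GMTT overlapped. It changed by -0.75 (SE 0.18) and 0.82 (SE 0.18) and was not called in GMTT against Sham at 0.06. Wnt10b, a ligand that favours bone over fat, was lower in GPI than in Sham, at -1.47 (SE 0.33) and higher in GMTT than in GPI by 1.36 (SE 0.33), and GMTT against Sham was -0.11, not called. Wnt11 and Wnt4, ligands used outside the canonical branch, were higher in GPI than in Sham by 3.00 (SE 0.25) and 2.35 (SE 0.33). They were lower in GMTT than in GPI, at -2.61 (SE 0.24) and -1.57 (SE 0.29), though Wnt4 was at -0.47 and not called with library sizes only. In GMTT against Sham neither was called (0.40 and 0.78), and Wnt4 was called at 1.34 without Sham replicate 3 (edgeR adjusted p = 0.00783) and on log2(FPKM + 0.1) values.

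The other 11 ligands were too low to test, as was Dkk4. Wnt2b held 4, 5 and 5 counts in the Sham libraries, 12, 13 and 4 in those of GPI, and 5, 3 and 5 in those of GMTT, and Wnt6 held 5, 3 and 9 counts in the Sham libraries, 7, 2 and 5 in those of GPI, and 7, 7 and 8 in those of GMTT. Wnt1 held 5, 4 and 14 counts in the Sham libraries, 1, 1 and 0 in those of GPI, and 2, 1 and 4 in those of GMTT. Most of its Sham counts were thus in replicate 3. The sums of 23, 2 and 7 gave a Sham to GPI ratio of 6.01 (95% counting interval 1.48 to 52.6). That interval covers counting error only. For Wnt7b the sums were 3, 6 and 6, and for Wnt9b 6, 7 and 6. Wnt3, Wnt8b and Wnt10a had at most 3 counts in any group, and Dkk4, an antagonist of the Dkk family, had 1, 2 and 6. Wnt3a, Wnt7a and Wnt8a had no count in the 9 libraries, which allows up to 3 counts in a group, or 0.046 normalised CPM in Sham, 0.088 in GPI and 0.0435 in GMTT. Without the low-count filter, edgeR's quasi-likelihood test called Wnt2b higher in GPI than in Sham and lower in GMTT than in GPI, and Wnt1 lower in GPI and in GMTT than in Sham. The other 7 of these genes with a count were not called in that fit.

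The secreted antagonists divided by gene and not by family. Dkk1 (ENSRNOG00000048688, mRatBN7.2 chromosome 1, 228381521 to 228385202), which blocks Lrp5 and Lrp6, held 161, 202 and 166 counts in the Sham libraries, 1, 1 and 0 in those of GPI, and 155, 130 and 160 in those of GMTT. It was close to absent from GPI and present in every other library. Sham was 138 times GPI (95% counting interval 38.1 to 1140) and GMTT 110 times GPI (30.3 to 911), after correction for scaled library size. In GMTT against Sham Dkk1 was lower, at -0.33 (SE 0.11), a call lost with DESeq2, on log2(FPKM + 0.1) values, and without Sham replicate 2 or GMTT replicate 2. Dkk2, which can act for or against the signal depending on the cell, stood at 0.587, 0.693 and 0.46 normalised CPM in the Sham libraries, 5.67, 4.96 and 6.26 in those of GPI, and 1.62, 2.94 and 2.24 in those of GMTT. It moved against Dkk1, with GPI highest, GMTT next and Sham lowest and no overlap. Dkk2 changed by 3.25 (SE 0.25), -1.31 (SE 0.19) and 1.95 (SE 0.26), and with library sizes only the GMTT against GPI value was -0.21 and not called. Dkk3, a distant relative that does not bind Lrp6, stood at 16.5, 16.7 and 17.6 normalised CPM in the Sham libraries, 21, 23.2 and 23.6 in those of GPI, and 23.7, 23.8 and 25.1 in those of GMTT. Sham was lowest, and GPI and GMTT were apart by little. Dkk3 was higher in GPI than in Sham by 0.41 (SE 0.08) under TMM scaling and lower, at -0.68, with library sizes only. In GMTT it was higher than in Sham by 0.52 (SE 0.07) and not called against GPI at 0.10 (1.20 and called with library sizes only).

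Sfrp1, Sfrp2 and Sfrp4, decoys that hold Wnt ligands away from their receptors, were lower in GPI. Sfrp2 (ENSRNOG00000009465, mRatBN7.2 chromosome 2, 169089517 to 169097063), a fibroblast and mesenchymal marker, stood at 9.69, 9.66 and 9.43 normalised CPM in the Sham libraries, 5.33, 7.9 and 5.97 in those of GPI, and 12.5, 13.2 and 12.6 in those of GMTT. The 3 groups did not overlap, with GMTT highest and GPI lowest. Sfrp2 changed by -0.58 (SE 0.13), 1.00 (SE 0.12) and 0.42 (SE 0.10), with adjusted p of 9.06e-05, 4.78e-09 and 0.000509 by edgeR's quasi-likelihood test. Sfrp1 stood at 23.8, 24.6 and 22.4 normalised CPM in the Sham libraries, 11.2, 11.9 and 12 in those of GPI, and 31.5, 28.3 and 32.2 in those of GMTT. It had the same order of groups without overlap, and changed by -1.01 (SE 0.09), 1.39 (SE 0.09) and 0.38 (SE 0.07). Sfrp4, which is known for its effect on cortical bone, averaged 20.1 ± 0.905 normalised CPM in Sham, 9.97 ± 1.19 in GPI and 15 ± 0.603 in GMTT (SD, n = 3). GMTT was below Sham for this gene, at -0.42 (SE 0.08).

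Sfrp5 and Frzb differed from these 3. Sfrp5, a known adipocyte product, held 0, 2 and 3 counts in the Sham libraries, 43, 45 and 44 in those of GPI, and 7, 4 and 0 in those of GMTT. Only the GPI libraries held more than 10 reads. It changed by 5.54 (SE 0.44) in GPI against Sham and -4.55 (SE 0.38) in GMTT against GPI, and was not called in GMTT against Sham at 1.00. These sizes rest on few reads, with 6.19 without Sham replicate 3 in the first and -5.35 without GMTT replicate 1 in the second. The value in GMTT against Sham was 1.66 without Sham replicate 3 and 0.18 without GMTT replicate 1. Frzb, a ligand binder of cartilage and synovium, held 41, 48 and 40 counts in the Sham libraries, 25, 42 and 45 in those of GPI, and 50, 46 and 57 in those of GMTT. Frzb was higher in GPI than in Sham by 0.73 (SE 0.22) under TMM scaling and -0.36, not called, with library sizes only, and its call was lost without GPI replicate 3 (0.51, edgeR adjusted p = 0.0506). In GMTT against GPI its -0.57 (SE 0.21) was 0.53 with library sizes only, and that call was lost without GPI replicate 2 or 3 and on log2(FPKM + 0.1) values. Beside these antagonists, fibroblast and tendon markers took 0.12% to 0.124% of counts in Sham, 0.269% to 0.282% in GPI and 0.405% to 0.409% in GMTT. All 8 were called higher in both GPI and GMTT than in Sham, against 40.1% and 29.5% of all tested genes. In GMTT against GPI, however, 1 of these markers was called higher and 7 lower under TMM scaling, with a median of -0.85. Of all tested genes, 45.7% and 40.2% were. Their part in the antagonists' values was not tested.

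Of the 3 intracellular genes, Lef1 and Tcf7 were lower in GPI. Lef1 (ENSRNOG00000010121, mRatBN7.2 chromosome 2, 219666592 to 219779794), a DNA-binding partner of beta-catenin that is also known in early lymphocytes, stood at 22.7, 22.3 and 21 normalised CPM in the Sham libraries, 0.593, 0.336 and 0.193 in those of GPI, and 16.6, 12.8 and 15.2 in those of GMTT. It was near 0 in every GPI library, and GMTT lay below Sham without overlap. Lef1 changed by -5.83 (SE 0.21), 5.26 (SE 0.23) and -0.57 (SE 0.09), with adjusted p of 1.94e-22, 3.05e-20 and 1.83e-06 by edgeR's quasi-likelihood test. Tcf7, the related factor that marks T cells, stood at 5.82, 4.85 and 4.6 normalised CPM in the Sham libraries, 3.47, 3.11 and 2.7 in those of GPI, and 6.06, 6.37 and 5.7 in those of GMTT. The GPI libraries were lowest, and GMTT overlapped Sham. Tcf7 changed by -0.71 (SE 0.17) and 0.96 (SE 0.16), and was not called in GMTT against Sham at 0.25, although it was with median-of-ratios scaling and without Sham replicate 1. B cell markers took 0.0661% to 0.0714% of counts in Sham, 3.47e-05% to 8.62e-05% in GPI and 0.0403% to 0.042% in GMTT. All 5 were called lower in GPI against Sham, against 48.1% of all tested genes, and 1 was at 0 in GPI. T cell markers took 0.00239% to 0.00274%, 4.07e-05% to 8.67e-05% and 0.00279% to 0.00287%. Their part in the Lef1 and Tcf7 values was not tested.

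Axin2 (ENSRNOG00000055010, mRatBN7.2 chromosome 10, 93899245 to 93926231), the feedback target often read as a gauge of the beta-catenin branch, stood at 5.09, 4.98 and 5.33 normalised CPM in the Sham libraries, 6.94, 8.57 and 8.67 in those of GPI, and 4.65, 5.4 and 4.56 in those of GMTT. Under TMM scaling the GPI libraries lay above both other groups, and Sham and GMTT overlapped. Axin2 was higher in GPI than in Sham by 0.65 (SE 0.13) under TMM scaling (edgeR adjusted p = 4.28e-05) and lower, at -0.45, with library sizes only. In GMTT it was lower than in GPI, at -0.72 (SE 0.13) under TMM scaling (edgeR adjusted p = 9.47e-06) and higher, at 0.38, with library sizes only. These signs are set against 0. Axin2 lay above the median of all genes in GPI against Sham, which was -0.19 under TMM scaling and -1.28 with library sizes only. It lay below the median in GMTT against GPI, which was 0.12 and 1.22 in the same order. A change of scaling moves Axin2 and the median nearly alike. Their order under the other scaling is therefore no separate check, and it leaves the direction against 0 unsettled. In GMTT against Sham Axin2 was not called at -0.08 (SE 0.13).

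**Figure D3:**
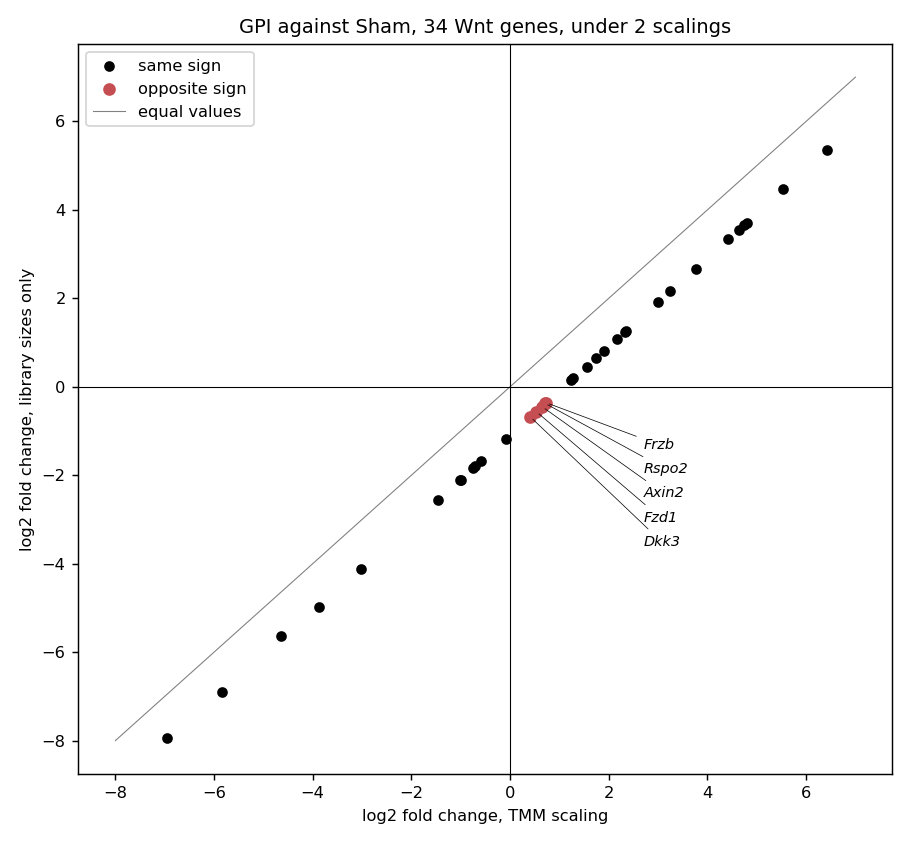
Log2 fold change in GPI against Sham of the 34 tested genes with TMM scaling (horizontal) and with library sizes only (vertical). All points lie below the line of equal values, and Frzb, Rspo2 (not called under either), Axin2, Fzd1 and Dkk3 change sign.

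The start regions of Axin2, Dkk1 and Fzd7 are shown because these are the 3 genes with more than 1 match to CTTTGA, the core letters of the sites that Lef1 and Tcf7 bind, and because they moved differently: Dkk1 fell in GPI, Fzd7 rose, and the sign for Axin2 depended on the scaling. Each start region is 300 bases of RefSeq's GRCr8 assembly, from 250 before to 50 after the annotated start. It is written 5′ to 3′ on the gene's strand with matches on either strand in capitals (CTTTGA or TCAAAG). Axin2 lies at chr10:94398535-94398834 on the plus strand, Dkk1 at chr1:237798601-237798900 on the minus strand and Fzd7 at chr9:68425288-68425587 on the plus strand.
Axin2: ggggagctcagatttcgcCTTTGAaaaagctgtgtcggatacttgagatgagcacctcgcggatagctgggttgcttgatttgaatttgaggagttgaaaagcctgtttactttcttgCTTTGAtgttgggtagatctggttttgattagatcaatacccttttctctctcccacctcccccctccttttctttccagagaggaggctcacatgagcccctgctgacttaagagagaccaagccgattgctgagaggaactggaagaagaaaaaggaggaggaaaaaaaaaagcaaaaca
Dkk1: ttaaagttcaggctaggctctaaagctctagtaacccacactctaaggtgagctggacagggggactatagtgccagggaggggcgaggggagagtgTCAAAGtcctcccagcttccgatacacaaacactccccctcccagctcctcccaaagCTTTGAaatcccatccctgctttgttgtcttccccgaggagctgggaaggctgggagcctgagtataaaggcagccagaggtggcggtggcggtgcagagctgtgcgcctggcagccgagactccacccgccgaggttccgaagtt
Fzd7: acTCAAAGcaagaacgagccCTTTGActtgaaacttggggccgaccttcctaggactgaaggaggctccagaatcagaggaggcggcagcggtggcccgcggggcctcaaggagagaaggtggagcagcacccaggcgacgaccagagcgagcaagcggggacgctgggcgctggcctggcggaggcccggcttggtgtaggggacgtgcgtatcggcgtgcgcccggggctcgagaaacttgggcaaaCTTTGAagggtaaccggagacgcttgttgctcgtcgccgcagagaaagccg
The letters began at bases 19 and 119 in Axin2, 98 and 155 in Dkk1, and 3, 21 and 250 in Fzd7, counted from 1 at the 5′ end. Of the 46 genes, 32 had a start region in the table, and 5 of these held a match, Tcf7 and Wnt8a with 1 each. Among all 33469 start regions of that length, 16.1% held one. A match describes letters only and does not show that a factor binds.

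The makeup of each class does not depend on the scaling of libraries, since it compares genes within 1 library. Shares of the summed FPKM (counts per gene length and library) were added after the values above had been seen, and are given without a test. Fzd5 was 40% ± 1.6 of the Frizzled sum in Sham, 0.438% ± 0.104 in GPI and 18.2% ± 0.68 in GMTT (SD, n = 3). Fzd4 was 15.7% ± 0.511, 63.7% ± 1 and 32.5% ± 0.512. The leading Frizzled was Fzd5 in Sham and Fzd4 in both injured groups. Rspo1 held 79.9% ± 6.9, 1.94% ± 0.774 and 66.5% ± 3.24 of the R-spondin sum, and Rspo3 18% ± 7.11, 97.4% ± 0.639 and 28.1% ± 1.84. Thus the main R-spondin transcript was Rspo3 in GPI and Rspo1 in Sham and GMTT.

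Among the ligands, Wnt5b went from 32.9% ± 1.5 of the sum in Sham to 7.98% ± 2.1 in GPI and stood at 21.3% ± 0.901 in GMTT. Wnt9a had 2.23% ± 0.7, 26.4% ± 2.3 and 5.85% ± 0.8. Wnt16 had 14.2% ± 2.01, 17.4% ± 1.08 and 24.9% ± 2, and Wnt5a 9.97% ± 0.736, 18.9% ± 1.71 and 11.7% ± 1.39. Of the Lef1 and Tcf7 pair, Lef1 made up 77.6% ± 1.64, 8.46% ± 3.33 and 66.1% ± 3.88, so Tcf7 was the larger of the pair in GPI and the smaller in Sham and GMTT. In the antagonist class Dkk1 went from 15.7% ± 0.643 in Sham to 0.143% ± 0.125 in GPI and 10.8% ± 0.919 in GMTT, and Sfrp5 from 0.169% ± 0.161 to 11.1% ± 0.776 and 0.307% ± 0.29.

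**Figure D4:**
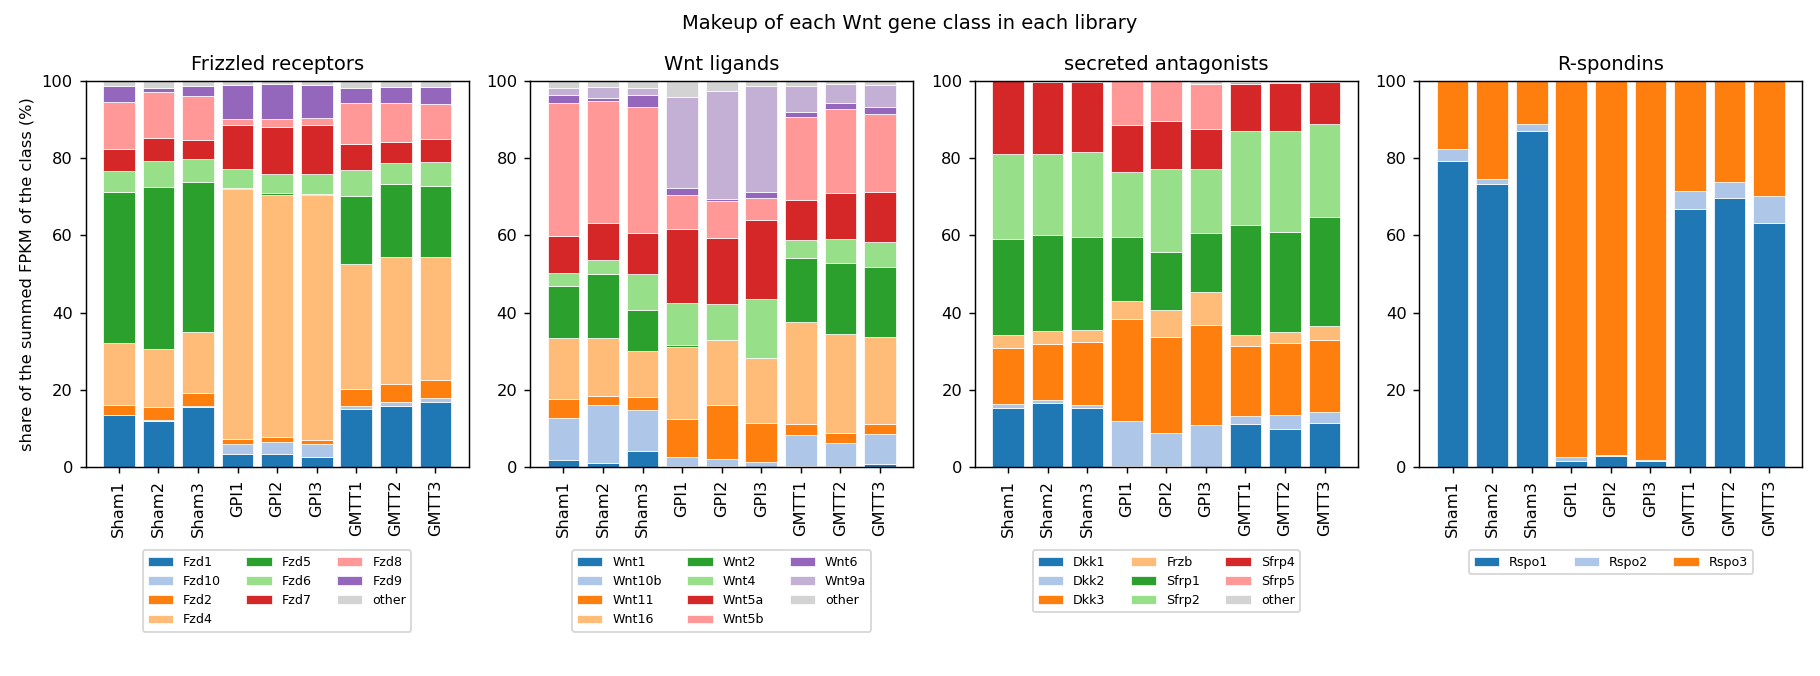
Share of the summed FPKM of 4 gene classes (vertical axis, percent) held by each gene in each of the 9 libraries (bars), with genes under 3% in every library joined as other. Fzd4 and Rspo3 fill most of their bars in GPI, and Fzd5 and Rspo1 are the largest segments in Sham.

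Levels of different genes can be compared per length, on the deposited FPKM scale. Lrp5 was the highest of the 46 in Sham at 6.25 ± 0.389 FPKM, followed by Sfrp1 at 5.39 ± 0.274, Fzd5 at 4.89 ± 0.0438, Lef1 at 4.86 ± 0.202 and Sfrp2 at 4.74 ± 0.083 (SD, n = 3). Lef1 lay within the spread of both Fzd5 and Sfrp2, while every Fzd5 library lay above every Sfrp2 library. In GPI the order was Fzd4 at 49 ± 1.79, Rspo3 at 16.7 ± 2.14, Lrp5 at 15.1 ± 0.294 and Lrp6 at 12.7 ± 0.472. Rspo3 and Lrp5 lay within the spread there. In GMTT Sfrp1 had the highest mean at 7.15 ± 0.478, with Lrp5 at 6.93 ± 0.439, Sfrp2 at 6.46 ± 0.182 and Fzd4 at 6.18 ± 0.164. The GMTT libraries of Sfrp1, Lrp5 and Sfrp2 overlapped, so the order of these genes is not settled.

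The rest of the pathway was read from 7 lists of 109 genes, of which 101 were tested. In GPI against Sham 52 were called higher, 34 lower and 15 not called, with a median of 0.32, against the 40.1% and 48.1% of all tested genes. Library sizes only gave 26 higher and 65 lower. In GMTT against GPI 38 were higher and 50 lower (70 and 22 with library sizes only), against 45.7% and 40.2% of all tested genes. In GMTT against Sham 40 were higher, 16 lower and 45 not called, against 29.5% and 28.3%. The counts of single lists below are for GPI against Sham and stand beside the same 40.1% higher and 48.1% lower over all tested genes, so nothing is read from them about a list.

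Of 12 further inhibitors tested, 2 were called higher in GPI, 9 lower and 1 not, where 48.1% of all tested genes were called lower. Sost, which encodes the osteocyte brake sclerostin, averaged 26.8 ± 1.72 normalised CPM in Sham, 0.39 ± 0.267 in GPI and 20.3 ± 1.16 in GMTT (SD, n = 3). Its log2 fold changes were -6.11, 5.71 and -0.40. The call in GMTT against Sham was lost on log2(FPKM + 0.1) values, at -0.36 (SE 0.36). Apcdd1 and Wif1, a membrane inhibitor and a ligand binder, were lower in GPI than in Sham, at -2.26 and -1.64. Kremen1, a receptor through which Dkk1 acts, was higher at 4.29, and lower in GMTT than in GPI at -3.07. Draxin was not called in GPI against Sham (-0.44), but was lower, at -1.50, with library sizes only. Notum, Sostdc1 and Kremen2 were too low to test, and Notum held 6, 11 and 9 counts in the 3 groups. Osteoblast and osteocyte markers, Sost among them, were called lower in 7 of 8 cases in GPI against Sham, against 48.1% of all tested genes. In GMTT against GPI 8 of 8 were called higher, against 45.7%. In GMTT against Sham 2 of these markers were called higher and 5 lower, against 29.5% and 28.3%. Their part in the values of Sost and Dkk1 was not tested.

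Genes of ligand secretion were called higher in 6 of 8 cases in GPI against Sham and lower in 1. Gpc3 and Gpc4, cell-surface proteoglycans that hold Wnt ligands, gave 5.06 and 2.63, and Wls, the carrier that takes Wnt proteins to the surface, 1.39. In GMTT against GPI Wls was lower, at -0.79 under TMM scaling and higher, at 0.31, with library sizes only. Gpc6 was not called, at 0.32 in GPI against Sham under TMM scaling, and was lower, at -0.77, with library sizes only. It was called higher, at 0.46, without GPI replicate 3. Further receptors were higher in 4 and lower in 2 of 7. The R-spondin receptors Lgr4 and Lgr6 gave 2.44 and 2.75, Ryk, a receptor of the polarity branch, 1.33, and Ror2, a Wnt5a receptor, -0.07 (not called, but lower at -1.16 with library sizes only).

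Of the cytoplasmic relay and destruction complex, 12 of 19 were called higher in GPI against Sham, 4 lower and 3 not called. Tnks2, a tankyrase that marks axin for destruction, and Dvl1, the relay below Frizzled, gave 2.0 and 1.73, and Btrc, which directs beta-catenin to the proteasome, -1.65. Amer1 (0.14), Gsk3a (-0.05) and Csnk1d (0.01) were not called under TMM scaling and were lower with library sizes only, and Amer1 was called higher, at 0.20, with median-of-ratios scaling. Nuclear factors were higher in 8 and lower in 6 of 16. The co-repressor Tle1 gave 4.50, its relative Tle5 2.03 and the beta-catenin partner Bcl9l 1.80, and Bcl9 (-0.22) and Tle4 (0.05) were not called. These last were lower with library sizes only, at -1.31 and -1.05.

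The planar polarity and calcium branch had 16 of 25 genes called higher in GPI against Sham, 7 lower and 2 not called. Its leading genes were Camk2a at 5.82, Camk2b at 5.59 and Camk2g at 2.60, calcium-dependent kinases that muscle also expresses. Celsr2 (-0.20) and Celsr3 (-0.02) were not called under TMM scaling and were lower, at -1.29 and -1.09, with library sizes only. Celsr3 was at -0.71, not called, without GPI replicate 2. The skeletal muscle shares given above were highest in the same libraries, and their part in the kinase values was not tested. Of 14 usual target genes of beta-catenin tested, 4 were called higher in GPI against Sham, 5 lower and 5 not called. Of all tested genes, 40.1% and 48.1% were called higher and lower. Jun, a component of the AP-1 factor, gave 3.93, while the growth regulator Myc gave -1.92 and the surface protein Cd44 -1.69. Tnfrsf11b, the osteoclast inhibitor osteoprotegerin, was not called at -0.41. It was called lower with library sizes only (-1.50), without the low-count filter, and without Sham replicate 1, GPI replicate 2 or GMTT replicate 1, with values of -0.61 to -0.42 in the last 4. Not called either were Ccn4 (0.05) and Ccn5 (0.26) under TMM scaling, which were lower with library sizes only. Ccn5, a matrix protein, was higher in GMTT than in GPI by 2.74 and than in Sham by 3.00.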

How the data were processed

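Poly(A)-selected RNA of rat femurs was made into strand-specific paired-end libraries, per the labels' protocols. The authors deposited a table of raw counts and a table of FPKM. Each deposited FPKM was the count divided by the gene's length and by a number fixed for that library. Relative to total counts, that number was 0.598 to 0.608 in GPI and 1.29 to 1.32 in the other groups. It was thus close to the TMM factors given above. The genome build given in the submitters' processing notes is mRatBN7.2. Aligner, counter, strand option and treatment of multiply placed reads are not stated by the sources used, so overlapping, antisense and near-identical genes are uncertain. Libraries held 15927429 to 19715997 counts.

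Groups came from the labels. Counts of the 9 libraries were filtered with filterByExpr (minimum count 10), scaled by TMM and fitted in 1 model of 3 groups with edgeR 4.0.16 (R 4.3.3), using robust quasi-likelihood F tests, 2-sided, with Benjamini-Hochberg adjustment over 15936 genes, called below 0.05. The fit was first tested on simulated data. Alternatives were other scalings, DESeq2 1.42.0, limma 3.58.1 on log2(FPKM + 1) and log2(FPKM + 0.1), other filters, 6 libraries only, a replicate block, a 2-fold minimum, removal of mitochondrial, muscle and erythroid genes, and leaving out each library. Figures were drawn with matplotlib 3.10.9. The 46 genes, the lists and the rules were chosen with earlier results of these data known. Every gene of the 46 was to be named. Values in every library were given for Wnt5a, Sfrp2 and Axin2, for the 3 genes with the highest mean FPKM in each role and for the 5 largest called changes in each comparison. Fzd5, Frzb, Wnt1, Wnt2b and Wnt6 were added after their values had been seen. In each further list the 3 genes with the smallest p and up to 3 that were not called in GPI against Sham were named, with Wls, Sost, Wif1 and Notum. Start regions came from RefSeq's GRCr8 table. Protein sequences were not used here.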

Additional observations from a re-analysis of the deposited data

How the results depend on the processing

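With library sizes only, the genes called higher and lower numbered 3521 and 11210 in GPI against Sham and 11503 and 3016 in GMTT against GPI over all genes, and 26 and 65, and 70 and 22, in the pathway lists. In GMTT against GPI the 46 genes gave 10 lower, and 17 higher and 8 lower at 2-fold. The sign against 0 reversed under this scaling alone among the alternatives, counting genes that passed the test in at least 1 of the 2 fits. In GPI against Sham this held for Dkk3 (-0.68), Frzb (-0.36), Axin2 (-0.45), Fzd1 (-0.56), Amer1 (-0.96), Csnk1d (-1.08), Gpc6 (-0.77), Tle4 (-1.05), Ccn5 (-0.82) and Ccn4 (-1.05). In GMTT against GPI it held for Frzb (0.53), Wnt16 (1.05), Axin2 (0.38), Fzd2 (1.02), Amer1 (1.03), Gsk3a (1.01), Csnk1d (0.96), Wls (0.31), Gpc6 (1.09), Celsr2 (0.98) and Tnfrsf11b (0.92). The other alternatives scaled by TMM or median-of-ratios or used the deposited FPKM, whose library numbers lay close to the TMM factors. They are no separate check on the scaling. Library sizes only lowered large and small values alike in GPI against Sham. Fzd4 went from 4.65 to 3.55, Lrp5 from 1.24 to 0.15 and Axin2 from 0.65 to -0.45. What set the TMM factors of the groups apart was not tested. A filter of at least 5 CPM in 3 libraries, which tested fewer genes, left 12 of the 46 higher in GPI against Sham (9 higher and 4 lower at 2-fold), 10 lower in GMTT against GPI (5 and 9 at 2-fold) and 13 higher in GMTT against Sham (4 at 2-fold). On log2(FPKM + 1), filtered or not, 4 were lower at 2-fold in GPI against Sham and 1 higher in GMTT against Sham, where the pseudocount shrinks the changes of low genes. The 2-fold minimum left 4257 higher and 5028 lower of all genes in GPI against Sham, 4558 and 3895 in GMTT against GPI and 1465 and 389 in GMTT against Sham. In the pathway lists it left 16 lower in GPI against Sham, 18 higher and 26 lower in GMTT against GPI, and 6 higher and 1 lower in GMTT against Sham. Of the 46 it left 8 higher in GMTT against GPI, and 10 higher and 0 lower in GMTT against Sham, where 1 (Wnt1) was lower without the low-count filter. Over all settings, 1957 values of the 34 tested genes kept their side of the threshold, some that were not called with a change of sign, 26 lost the call and 11 gained it. Leaving out 1 library moved no count by over 1.5 times. To look for pairing by number, each group's mean was subtracted from the log2 CPM. These deviations were correlated between libraries of different groups. They gave -0.146 to 0.0614 for same-numbered libraries and -0.085 to 0.118 for others, so the numbers gave no sign of pairing. With a replicate block the calls stood at 21 higher and 11 lower, 13 and 17, and 20 and 4, and no call changed for any gene named. Genes under about 10 counts a library limit what can be compared.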
